A study of Mus musculus with 6 samples.

Results

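Genes of cell division and DNA replication were followed in E14.5 mouse embryos that lack Dlx5, a homeodomain protein that patterns the jaw and face, and in wild type embryos of the same stage. The 36 genes were taken by symbol from a table of 49492 gene rows: 18 act in mitosis, 16 in DNA replication or its supply, and 2 are the G1 cyclins Ccnd1 and Ccnd2. The study had 3 Dlx5-/- libraries and 3 control (wild type) libraries of polyadenylated RNA from the soft palate, the posterior part of the roof of the mouth. The labels give no strain, do not say how the Dlx5 allele was made, and do not say whether each library stands for an embryo of its own. The p-values therefore reflect library-to-library spread, which may be technical.

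Cells that divide copy their DNA in S phase and separate the copies in mitosis. The replicative helicase, built from the MCM2-7 ring, Cdc45 and the GINS complex, opens DNA at origins, and ribonucleotide reductase and thymidylate synthase supply the building blocks. In mitosis the kinase Cdk1 with its B-type cyclins drives entry, the spindle checkpoint holds chromosomes until they are attached, and the anaphase-promoting complex then marks cyclins for destruction. Transcription of these genes runs in waves: replication genes are typically switched on by E2F factors at the start of S phase, and mitosis genes later through the CHR element, bound by the DREAM and MuvB complexes. In the palate at this stage the mesenchyme, epithelium and muscle precursors still proliferate, while most neurons of the region have left the cell cycle.

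The promoters of 6 of these genes show the 2 kinds of element that those factors use. Each window runs from 250 bases before to 50 bases after the annotated start (RefSeq, GRCm38.p6), is written 5′ to 3′ on the gene's strand, and has the CHR and E2F letters, on either strand, in capitals. The CHR letters searched were TTTGAA and, as another form, TTCGAA, which reads the same on both strands. The E2F letters searched were TTCCCGC and, as other known forms, TTGGCGC, then also TTCGCGC, and lastly the form TTGCCGC. Matches that overlap form a single run of capitals. Ube2c and Plk1 were chosen as mitosis genes with a CHR match, Cdk1 as a gene with both, Mcm5 and Mcm6 as replication genes with E2F matches, and Cdc45 as the replication gene with the highest fold change. They lie at chr2:164769679-164769978, plus strand (Ube2c), chr7:122159185-122159484, plus strand (Plk1), chr10:69352863-69353162, minus strand (Cdk1), chr8:75109259-75109558, plus strand (Mcm5), chr1:128359656-128359955, minus strand (Mcm6) and chr16:18811923-18812222, minus strand (Cdc45).
Ube2c: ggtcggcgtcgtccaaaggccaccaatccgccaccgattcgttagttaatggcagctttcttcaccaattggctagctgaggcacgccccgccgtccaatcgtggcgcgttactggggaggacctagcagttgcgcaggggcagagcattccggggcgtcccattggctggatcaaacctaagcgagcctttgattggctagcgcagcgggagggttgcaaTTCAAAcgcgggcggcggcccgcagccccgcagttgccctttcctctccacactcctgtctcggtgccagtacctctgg
Plk1: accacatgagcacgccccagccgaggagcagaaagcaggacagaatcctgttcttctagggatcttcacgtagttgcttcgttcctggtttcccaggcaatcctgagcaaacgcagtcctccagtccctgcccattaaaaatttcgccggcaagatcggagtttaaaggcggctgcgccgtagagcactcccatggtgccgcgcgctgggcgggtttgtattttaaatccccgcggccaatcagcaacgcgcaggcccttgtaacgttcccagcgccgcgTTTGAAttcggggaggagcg
Cdk1: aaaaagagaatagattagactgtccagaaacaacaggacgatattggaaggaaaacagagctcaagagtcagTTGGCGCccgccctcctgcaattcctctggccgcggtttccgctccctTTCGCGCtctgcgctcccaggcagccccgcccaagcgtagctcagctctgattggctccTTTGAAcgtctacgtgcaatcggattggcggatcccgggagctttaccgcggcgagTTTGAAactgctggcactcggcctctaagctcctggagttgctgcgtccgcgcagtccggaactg
Mcm5: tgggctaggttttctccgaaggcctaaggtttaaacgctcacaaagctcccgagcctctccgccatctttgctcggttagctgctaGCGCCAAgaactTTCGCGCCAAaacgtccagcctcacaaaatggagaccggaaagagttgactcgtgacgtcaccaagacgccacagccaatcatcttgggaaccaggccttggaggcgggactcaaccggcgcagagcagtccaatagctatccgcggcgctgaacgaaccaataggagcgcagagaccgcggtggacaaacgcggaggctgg
Mcm6: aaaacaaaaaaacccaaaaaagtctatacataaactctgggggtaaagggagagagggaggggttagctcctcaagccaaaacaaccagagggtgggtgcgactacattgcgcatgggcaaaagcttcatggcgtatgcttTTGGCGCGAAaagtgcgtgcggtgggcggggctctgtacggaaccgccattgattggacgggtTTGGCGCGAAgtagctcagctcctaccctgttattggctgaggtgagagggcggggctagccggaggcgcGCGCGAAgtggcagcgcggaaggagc
Cdc45: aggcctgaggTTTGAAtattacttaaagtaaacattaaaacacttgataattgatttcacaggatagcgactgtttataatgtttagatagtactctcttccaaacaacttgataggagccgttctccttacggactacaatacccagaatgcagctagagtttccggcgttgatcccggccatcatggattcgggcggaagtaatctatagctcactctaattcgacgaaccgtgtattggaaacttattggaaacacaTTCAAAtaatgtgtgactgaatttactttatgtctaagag

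A promoter window was found for 28 of the 36 genes, 15 of mitosis and 13 of replication; Ccna2, Aurkb, Tpx2, Mcm4, Ccne2, Gins2, Ccnd1 and Ccnd2 had none. The CHR letters were in 11 of 15 mitosis genes (73.3%) and in 3 of 13 replication genes (23.1%), beside 19.2% of all 32851 windows of the same length and 16.1% of the 10913 tested genes that had a window. The E2F letters were in 3 of 15 mitosis genes and in 7 of 13 replication genes (53.8%), beside 9.57% of all windows and 19.1% of those tested genes. In 10 of the 11 mitosis genes with CHR letters a match lay within 75 bases of the start. The share of all windows with a match this near the start was not taken, so this count has no background. CCAAT boxes, searched as CCAAT on both strands, were in 13 of 15 mitosis genes and 9 of 13 replication genes, beside 37.4% of all windows and 42.7% of those tested genes. A match of letters is a description of the window and not a binding site.

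**Figure D1:**
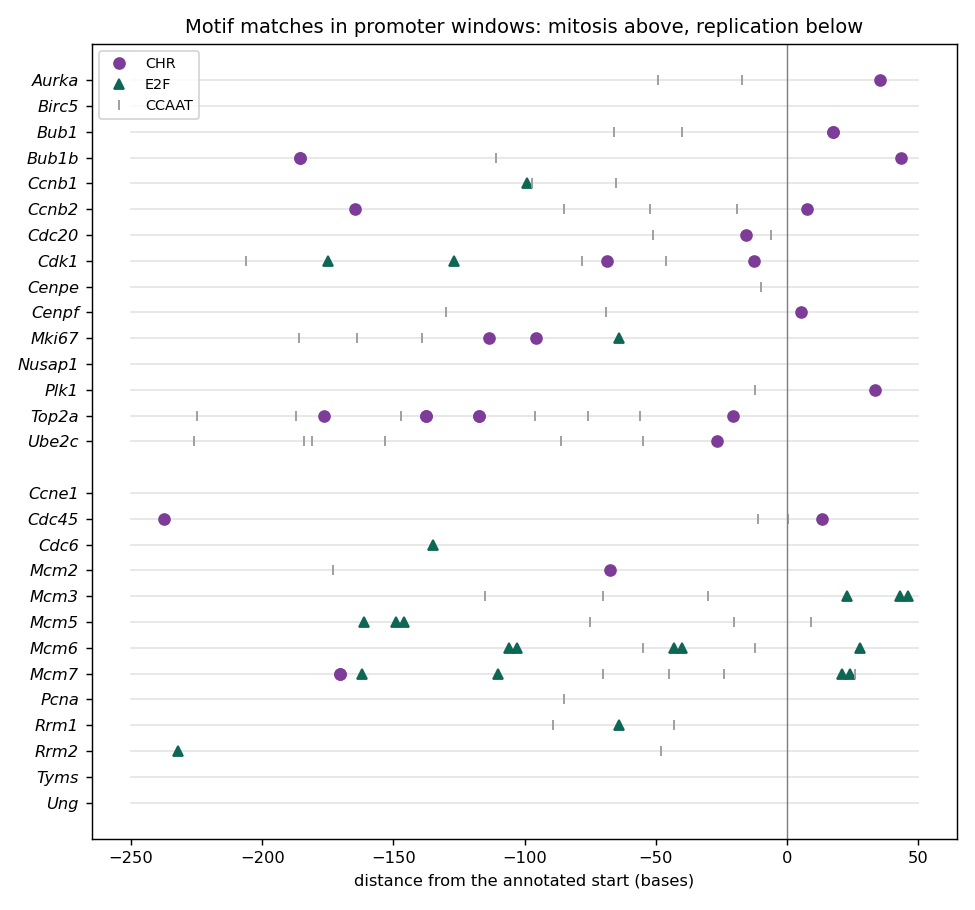
Position of motif matches (circles CHR, triangles E2F, ticks CCAAT) relative to the annotated start, in bases, for the 28 genes with a promoter window, mitosis genes in the upper block and replication genes in the lower; the windows of Mcm7, which has 2, share a line. CHR matches lie in 11 of 15 mitosis genes and E2F matches in 7 of 13 replication genes.

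The libraries held between 6891798 and 11922442 estimated counts. Dlx5 had 7, 15 and 17 counts in the Dlx5-/- libraries, against 242, 193 and 113 in the control libraries (log2 fold change -3.93, SE 0.32; adjusted p = 0.0205, edgeR); it was lower in all 3 libraries labelled Dlx5-/-. Levels below are CPM (counts scaled to library size) after TMM, a scaling that sets the bulk of genes equal between libraries. Genes were tested where they averaged at least 1 CPM, which left 16218 genes. Dlx5-/- replicate 3 stood apart, with a mean correlation of 0.959 to the others, against 0.970 to 0.976 for the rest, and with 13.0% of its counts in 6 rows that collect ribosomal RNA, against 18.8% to 29.0%. All 10 markers of palate mesenchyme were measured. Their summed level was 4086, 6083 and 3448 CPM in the Dlx5-/- libraries, against 5170, 4895 and 5403 CPM in the control libraries. Col1a1 and Col3a1, named after their values were seen, made up most of each sum. Of the 10 estimates, 5 lay above 0 and 5 below (median log2 fold change -0.08). Prrx1 (0.45) and Pdgfra (0.32) were higher without overlap of the groups, as 9.49% of tested genes were. Pax9 (-0.67) was lower without overlap, as 9.7% were. EdgeR called 0 of the 10, while DESeq2 called Prrx1 higher and Pax9 lower (backgrounds 0.858% and 2.76%).

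All 36 genes had estimates above 0 in Dlx5-/- palates, where 52.5% of the 16218 tested genes did, but the differences were small and none passed the test. The 36 were chosen with earlier results of these data known, so their shared direction is a description. The median log2 fold change was 0.24 over the mitosis genes, 0.26 over the replication genes and 0.01 over all tested genes. Every gene averaged at least 6.51 CPM in controls, and none entered the test only through the Dlx5-/- libraries. At an adjusted p under 0.05 edgeR called 0 of the 36, beside 0.0% of all tested genes called higher and 0.00617% called lower. At an adjusted p under 0.1 it held Ube2c and Birc5, beside 0.259% of tested genes higher. At an unadjusted p under 0.05, 20 of the 36 were higher and 0 lower, where 5.61% of tested genes were higher and 7.23% lower. DESeq2 called 1 higher, Ube2c (background 0.858%), with 15 at an unadjusted p under 0.05 (background 4.14%). Limma-trend also called Ube2c alone (background 0.0555%), with 20 at an unadjusted p under 0.05 (background 5.38%). In 24 of the 36 genes every Dlx5-/- library lay above every control library, a pattern that 9.49% of tested genes showed, and none of the 36 had the opposite pattern, which 9.7% did. The count of 20 was 11 without control replicate 2 (background 3.72%) and 10 without control replicate 3 (background 3.47%). It was 6 with library totals in place of TMM (background 2.79%). The count of 24 ran from 24 to 29 with 1 library left out, where the background was 13.6%, 13.7%, 14.9%, 15.3%, 15.6% and 15.6%.

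**Figure D2:**
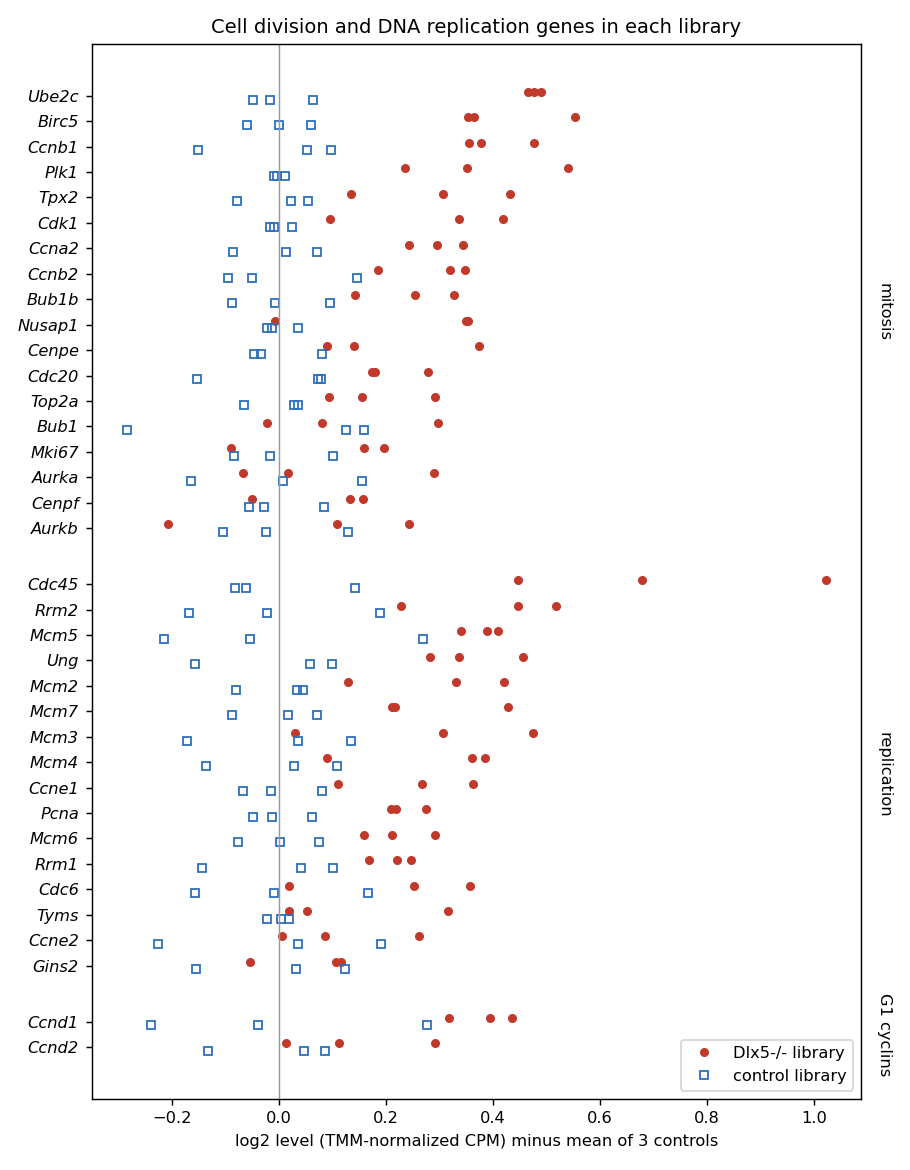
Level of each gene in each library as log2 CPM minus the mean of the 3 control libraries (filled circles Dlx5-/-, open squares control), genes sorted by fold change within each class. Circles lie to the right of all squares in 24 of 36 rows, and the widest gap belongs to Ube2c.

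Ube2c, the ubiquitin-conjugating enzyme that works with the anaphase-promoting complex, differed most evenly. It measured 66.3, 65.2 and 65.7 CPM in the Dlx5-/- libraries, against 49.4, 45.7 and 46.7 CPM in the control libraries (chromosome 2, 164769898 to 164778822, GRCm38). The 2 groups were far apart relative to their spread, with 65.7 ± 0.508 CPM in Dlx5-/- and 47.3 ± 1.94 CPM in controls (SD, n = 3 each). Its log2 fold change was 0.48, with an SE of 0.07 and an interval at 95% confidence of 0.31 to 0.65. The adjusted p of 0.0550 (edgeR) lay just outside the threshold. Over the alternatives it ran from 0.00353 to 0.280: DESeq2, limma-trend, both other filters and the fit without Dlx5-/- replicate 3 called the gene (background without that library 0.074%). Its partner Cdc20, which activates the anaphase-promoting complex, measured 26.7, 28.7 and 26.8 CPM in Dlx5-/- and 25.0, 21.3 and 24.9 CPM in controls (log2 fold change 0.21, SE 0.11; adjusted p = 0.458, edgeR).

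Birc5 encodes survivin, a subunit of the chromosomal passenger complex that corrects attachments at the centromere. It measured 49.7, 43.6 and 43.3 CPM in Dlx5-/-, against 33.9, 32.5 and 35.3 CPM in controls, with no overlap (log2 fold change 0.43, SE 0.09; adjusted p = 0.0913, edgeR). Aurkb, the kinase of the same complex, measured 20.4, 16.4 and 22.4 CPM in Dlx5-/- and 20.7, 17.6 and 18.6 CPM in controls, which overlap (0.06, SE 0.15). The other subunits, named here after their values were seen, lay between, at 0.34 for Cdca8 (SE 0.14) and 0.21 for Incenp (SE 0.13). Whether the subunits differ from each other was not tested.

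Entry into mitosis is driven by kinases and cyclins. Cdk1, the kinase of mitotic entry, measured 51.8, 41.4 and 48.9 CPM in Dlx5-/-, against 38.5, 39.4 and 38.3 CPM in controls (log2 fold change 0.29, SE 0.10). Ccnb1, the main cyclin of mitosis, measured 34.6, 31.8 and 32.3 CPM in Dlx5-/-, against 26.6, 25.8 and 22.4 CPM in controls (0.40, SE 0.10; adjusted p = 0.145, edgeR). For both genes the lowest Dlx5-/- library lay above the highest control library. Ccnb2 (0.28) and Ccna2 (0.29), the other B-type and the A-type mitotic cyclin, also had groups that did not overlap. Plk1, a kinase that matures centrosomes and releases cohesion, measured 34.8, 37.7 and 43.0 CPM in Dlx5-/-, against 29.5, 29.8 and 29.4 CPM in controls (0.39, SE 0.10; adjusted p = 0.150, edgeR), so the spread lay in the Dlx5-/- libraries.

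Spindle and centromere genes spanned the rest of the range. Tpx2, which nucleates spindle microtubules, had a log2 fold change of 0.30 (SE 0.09), Bub1b, the checkpoint protein BubR1, of 0.24 (SE 0.09), Nusap1, a microtubule-binding protein, of 0.24 (SE 0.11), the kinetochore motor Cenpe of 0.21 (SE 0.10) and Top2a, the topoisomerase that untangles sister DNA, of 0.18 (SE 0.08). The estimates nearest 0 belonged to Bub1, a checkpoint kinase (0.12), Aurka, the centrosome kinase (0.09), Mki67 (0.09), Cenpf (0.08) and Aurkb (0.06), and their groups overlapped. Bub1 had an estimate of -0.0158 without control replicate 2. Aurka had -0.0255 and Aurkb -0.0488 without Dlx5-/- replicate 3, so the direction of these 3 rested on 1 library each.

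Mki67, the marker most used to count dividing cells, was among those that overlapped. It measured 425, 506 and 519 CPM in Dlx5-/-, against 447, 427 and 485.5 CPM in controls. Dlx5-/- replicate 1 was the lowest of all 6 libraries for this gene, whereas for Birc5, Cdk1 and Ccnb1 it was the highest. The interval of its log2 fold change ran from -0.14 to 0.32 (adjusted p = 0.759, edgeR), which includes the medians of both classes.

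The 6 subunits of the MCM ring, which is loaded on origins before S phase, had log2 fold changes within a narrow band, from 0.22 for Mcm6 to 0.36 for Mcm5. Mcm7 measured 74.4, 74.1 and 86.1 CPM in Dlx5-/-, against 67.2, 64.8 and 60.2 CPM in controls (0.29, SE 0.09; adjusted p = 0.224, edgeR). Mcm2 measured 87.5, 100.6 and 107 CPM in Dlx5-/-, against 82.6, 81.9 and 75.7 CPM in controls (0.30, SE 0.09; adjusted p = 0.226, edgeR). Groups did not overlap for Mcm2, Mcm5, Mcm6 and Mcm7, and overlapped for Mcm3 and Mcm4, whose lowest Dlx5-/- library was replicate 1.

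Cdc45, which joins the MCM ring and GINS to form the active helicase, had the highest estimate of all 36 genes and a low level, 3.08 CPM per kilobase of exon in Dlx5-/- and 1.86 in controls. It measured 8.86, 10.4 and 13.2 CPM in Dlx5-/-, against 6.14, 6.23 and 7.17 CPM in controls (chromosome 16, 18780447 to 18811987, GRCm38). All Dlx5-/- libraries were above all controls, with replicate 3 highest. Its log2 fold change was 0.74 (SE 0.21), with bounds of 0.27 and 1.21 at 95% confidence, and missed the threshold (adjusted p = 0.172, edgeR). Without Dlx5-/- replicate 3 it was 0.57, the low end of its range over libraries left out, whose high end was 0.86. Gins2, a GINS subunit, had groups that overlapped (0.06, SE 0.10), and the other GINS subunits, Gins1, Gins3 and Gins4, named after their values were seen, had estimates of 0.24, 0.20 and 0.24. Without control replicate 1 the estimate for Gins2 was -0.0186.

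Among the 36 genes, the enzymes that supply deoxynucleotides, Rrm1, Rrm2 and Tyms, had estimates between 0.14 and 0.40. Rrm2, the regulatory subunit of ribonucleotide reductase that is made in S phase, measured 40.9, 47.6 and 50 CPM in Dlx5-/-, against 39.8, 31.1 and 34.4 CPM in controls (0.40, SE 0.12; adjusted p = 0.209, edgeR). Its lowest Dlx5-/- library was only just above its highest control library. Rrm1, the catalytic subunit, had 0.21 (SE 0.09) and Tyms, thymidylate synthase, 0.14 (SE 0.11), both without overlap of the groups, for Tyms by only 0.0068 CPM. Ung, which removes uracil from DNA, had 0.35 (SE 0.17) at 10.5 ± 0.636 CPM in Dlx5-/- and 8.19 ± 0.761 CPM in controls (SD, n = 3 each). The S phase cyclins Ccne1 and Ccne2 had 0.25 (SE 0.11) and 0.10 (SE 0.14), and Cdc6, which loads the MCM ring, 0.21 (SE 0.17). The estimate for Ccne2 was -4.97e-05 without control replicate 3.

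Pcna, the sliding clamp of DNA polymerases, measured 61.3, 58.6 and 59.0 CPM in Dlx5-/-, against 50.2, 52.9 and 49.0 CPM in controls (0.23, SE 0.08; adjusted p = 0.237, edgeR). A near-identical pseudogene, Pcna-ps2, took 32.8, 27.6 and 34.9 CPM in Dlx5-/- and 30.4, 32.2 and 38.4 CPM in controls (-0.08, SE 0.13), and reads of the pair may have been split. Their sum was 94.1, 86.3 and 93.9 CPM in Dlx5-/- and 80.5, 85.2 and 87.4 CPM in controls, and the groups then overlapped. The value of Pcna alone is therefore uncertain. Of the 36 genes, 26 had a fractional count in at least 1 library.

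The G1 cyclins carry growth signals to Cdk4 and Cdk6. Ccnd1 measured 172.5, 182 and 187 CPM in Dlx5-/-, against 167.5, 117 and 135 CPM in controls (0.37, SE 0.13; adjusted p = 0.266, edgeR). All Dlx5-/- libraries were above all controls, by a small margin over control replicate 1. Ccnd2 measured 506, 573 and 472.5 CPM in Dlx5-/- and 484, 427 and 496.5 CPM in controls, which overlap (0.14, SE 0.10; adjusted p = 0.618, edgeR). Per kilobase of exon, Ccnd2 and Mki67 were the most abundant of the 36, at 55.0 and 48.0 CPM per kilobase in Dlx5-/- and 49.8 and 45.1 in controls. Ung was the lowest on this scale, at 1.91 in Dlx5-/- and 1.5 in controls, and exon lengths came from GENCODE M21, which need not be the annotation used for counting.

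**Figure D3:**
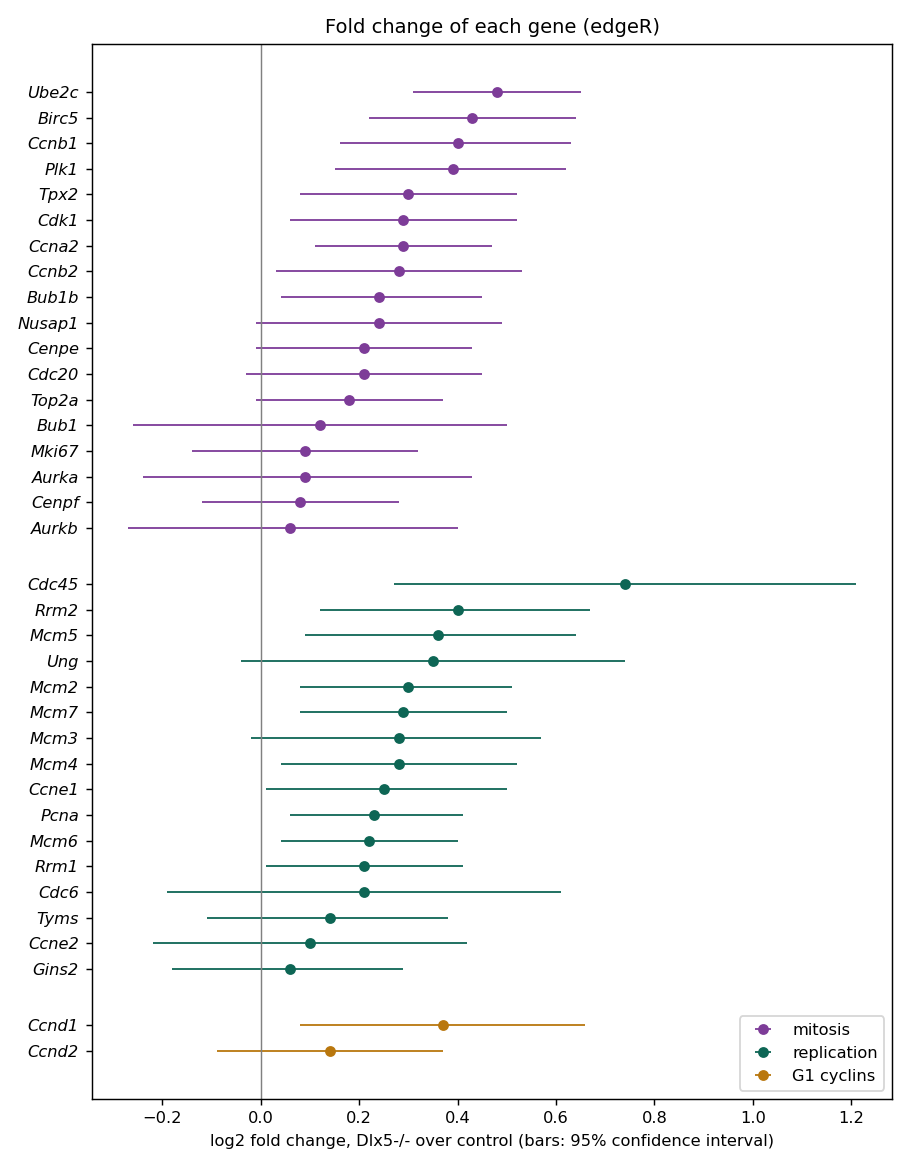
Log2 fold change, Dlx5-/- over control, of each gene with its 95% confidence interval (edgeR), by class. All 36 points lie right of 0, from 0.06 for Gins2 and Aurkb to 0.74 for Cdc45.

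Mitosis and replication genes had like medians. The medians, 0.24 and 0.26, gave a difference between mitosis and replication of -0.02 on the log2 scale. It ran from -0.0854 to 0.0176 with 1 library left out, so that its sign was not fixed. In each library, the mean log2 CPM of the mitosis genes exceeded that of the replication genes by 0.42, 0.26 and 0.33 in Dlx5-/- replicates 1, 2 and 3, against 0.35, 0.31 and 0.45 in control replicates 1, 2 and 3. These values overlap, with 0.34 ± 0.08 in Dlx5-/- and 0.37 ± 0.07 in controls (SD, n = 3 each). The classes did differ in which Dlx5-/- library was lowest. Median values relative to the control mean were 0.21, 0.16 and 0.31 for mitosis genes and 0.17, 0.28 and 0.34 for replication genes in Dlx5-/- replicates 1, 2 and 3, so replicate 2 was lowest for mitosis, replicate 1 for replication, and replicate 3 highest for both. In the control libraries the same medians lay between -0.06 and 0.04 for mitosis genes and between -0.03 and 0.06 for replication genes. Grouped by promoter letters, mitosis genes with the CHR letters had a median of 0.21 (11 genes) and those without 0.32 (4 genes), and replication genes with and without the E2F letters had medians of 0.28 (7 genes) and 0.27 (6 genes).

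**Figure D4:**
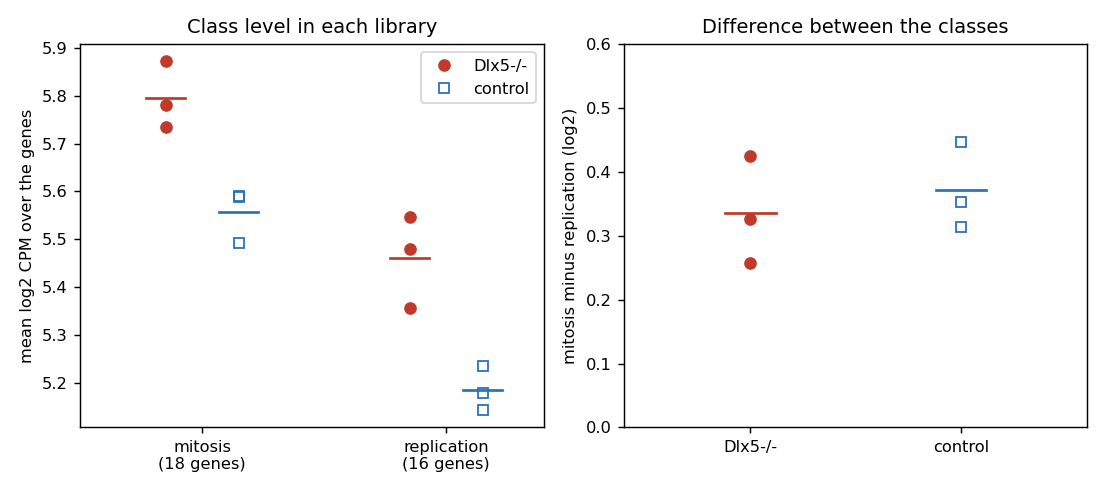
Left, mean log2 CPM over the 18 mitosis and 16 replication genes in each library (filled circles Dlx5-/-, open squares control, lines group means; the axis does not start at 0). Right, the mitosis mean minus the replication mean in each library, which overlaps between Dlx5-/- (0.26 to 0.42) and control (0.31 to 0.45).

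Other genes of the cell cycle, in 6 lists that hold none of the 36, also had mostly estimates above 0. These lists were chosen when the higher level of cell cycle genes in these data was already known. The shared direction is therefore a description and not independent support. Of 117 tested genes, 112 had estimates above 0, with a median of 0.24, and 0 passed at an adjusted p under 0.05 by edgeR. DESeq2 called 1 higher, Lig1, near its background of 0.858%, and limma-trend called 0 (background 0.0555% higher). At an unadjusted p under 0.05 by edgeR 37 (31.6%) were higher and 0 lower, beside 5.61% and 7.23% of all tested genes. Groups did not overlap for 52 higher genes (44.4%), beside 9.49% of tested genes, and for 2 lower ones, beside 9.7%. These 2 were Cenpw and Lin37, named after their values were seen. Kinetochore and checkpoint genes had 17 of 18 estimates above 0 (median 0.29), among them Spc25 (0.34), Cenpa, the centromeric histone (0.37), and Cenpm (0.56). Spindle and cytokinesis genes had 23 of 23 above 0 (median 0.27). Kif20a, a kinesin of cytokinesis, measured 43.5, 46.5 and 49.1 CPM in Dlx5-/-, against 36.8, 33.9 and 34.5 CPM in controls (0.40, SE 0.09; adjusted p = 0.0913, edgeR). It was the only one of the 117 under an adjusted p of 0.1 by edgeR, where 0.259% of tested genes were higher. Condensin, cohesin and separase genes had 16 of 17 above 0 (median 0.19), with Smc2 at 0.38 and Cdca5, sororin, at 0.62.

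Origin and fork genes had 35 of 36 estimates above 0 (median 0.22). Lig1, which seals Okazaki fragments, measured 97.6, 88.2 and 98.5 CPM in Dlx5-/-, against 69.0, 78.2 and 71.2 CPM in controls (0.38, SE 0.09; adjusted p = 0.105, edgeR), and Dbf4, which activates the origin kinase, had 0.39. Nucleotide supply and chromatin assembly genes had 11 of 11 above 0 (median 0.21), with Uhrf1, which guides maintenance methylation, at 0.39. The list of mitotic entry and its transcription had 10 of 12 above 0 (median 0.20). In it the mitosis activator Foxm1 measured 40.4, 44.1 and 46.1 CPM in Dlx5-/-, against 39.8, 35.0 and 33.7 CPM in controls (0.27, SE 0.10), and Wee1, the inhibitory kinase of Cdk1, had 0.44. Mybl2, which works with MuvB, overlapped (0.10, SE 0.21).

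Regulators upstream of the cell cycle were taken as 4 further lists. E2F and pocket protein genes had 12 of 13 estimates above 0 (median 0.14), with 0.47 for the repressor E2f7 and 0.11 for the activator E2f1 (SE 0.15). CDK inhibitors, of which 5 of 7 were tested, had 3 estimates above 0 (median 0.03). Cdkn1a (p21) had 0.37 (SE 0.14), Cdkn1c (p57) 0.22 (SE 0.10), Cdkn1b (p27) 0.03 (SE 0.11) and Cdkn2d (p19) -0.30 (SE 0.13). Cdkn1c measured 1295.8, 1620 and 1400.2 CPM in Dlx5-/-, against 1280.2, 1205.3 and 1224.4 CPM in controls, without overlap. Other G1 regulators had 4 of 6 above 0 (median 0.13), with Cdk2 at 0.38 and Cdk4 at 0.26. Of the p53 response, 6 of 12 genes lay on each side of 0 (median -0.01), and none had an unadjusted p under 0.05. Of these 4 lists edgeR, DESeq2 and limma-trend called 0 genes, with 5 of 36 higher and 1 lower at an unadjusted p under 0.05 by edgeR, beside 5.61% and 7.23% of tested genes.

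**Figure D5:**
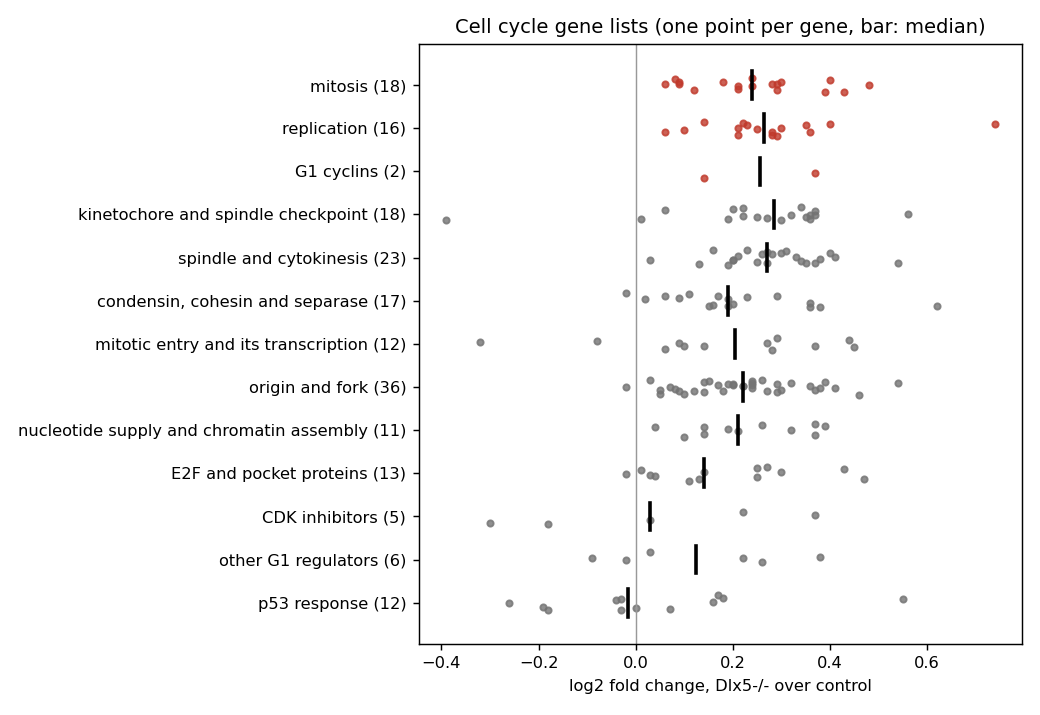
Log2 fold change, Dlx5-/- over control, of every tested gene in the 3 classes (upper 3 rows) and 10 further cell cycle lists, with the number of genes in brackets and the median as a bar. Medians lie between 0.19 and 0.29 in the 3 classes and the 6 lists of division and replication, and at -0.01 for the p53 response.

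Markers of other cell types were measured in the same libraries. The summed level of 12 neuron markers, which belong to cells that no longer divide, was 2432, 2120 and 1973 CPM in Dlx5-/-, against 3473, 4450 and 3524 CPM in controls. Of the 12, 9 had lower values in every Dlx5-/- library than in any control, a pattern that 9.7% of tested genes showed. The other markers, Snap25 (log2 fold change 0.37), Map2 (-0.14) and Syt1 (-0.08), named after their values were seen, had groups that overlapped. Dlx5-/- replicate 3 was the highest of all 6 libraries for each, at 156, 143 and 122 CPM. None of the 12 was at 0 in all libraries, and edgeR called 0, with 9 lower at an unadjusted p under 0.05 (background 7.23%), while DESeq2 called 9 lower (background 2.76%) and limma-trend 4 (background 0.543%). The 6 muscle progenitor markers summed to 45.4, 77.6 and 73.1 CPM in Dlx5-/-, against 38.2, 46.6 and 28.4 CPM in controls, and the 10 skeletal muscle markers to 859, 2366 and 1523 CPM in Dlx5-/-, against 788, 1118 and 680 CPM in controls. The Dlx5-/- and control sums overlapped in both lists. All 10 skeletal muscle markers had estimates above 0 (median 1.08), 8 of them with an unadjusted p under 0.05 by edgeR (background 5.61% higher). All 6 muscle progenitor markers also had estimates above 0 (median 0.79), 3 of them with such a p. Groups did not overlap for 2 of the 10 and 2 of the 6, where 9.49% of tested genes were higher without overlap. EdgeR called 0 of either list, and DESeq2 called the muscle markers Myog, Tnnt1 and Myl1 higher (background 0.858%). Of these, Myog was named after its values were seen. Endothelium markers, 6 in all, summed to 301, 337 and 282 CPM in Dlx5-/-, against 352.5, 350 and 408 CPM in controls, without overlap. Of these markers 3, Cdh5 (-0.42), Pecam1 (-0.23) and Kdr (-0.17), were lower without overlap, and the rest overlapped (median -0.15, 1 estimate above 0). Only Cdh5 had an unadjusted p under 0.05 by edgeR, and DESeq2 called it lower. In the oral epithelium list 3 of 8 markers, Cdh1, Krt14 and Krt17, lay lower without overlap, and DESeq2 called these 3 lower and edgeR 0. The rest of this list overlapped, and over all 8 the estimates were 3 above 0 and 5 below (median -0.04). The sums overlapped, at 188, 213 and 245 CPM in Dlx5-/- and 219.5, 248 and 379 CPM in controls. Among 10 neural progenitor markers the sums overlapped, at 347, 443 and 459 CPM in Dlx5-/- and 348.5, 405 and 348 CPM in controls. Nes, at 181, 325 and 325 CPM in Dlx5-/- and 193, 219 and 186 CPM in controls, made up much of these sums, and 6 of the 8 tested markers had estimates below 0 (median -0.41), with Sox2 lower without overlap. The 6 brain glia markers summed to 69.8, 53.2 and 145 CPM in Dlx5-/- and 53.6, 49.6 and 76.4 CPM in controls, with Dlx5-/- replicate 3 highest. Slc1a3 made up most of each sum. Gfap measured 2.36, 0.542 and 40.2 CPM in Dlx5-/- and 0.969, 0.486 and 1.43 CPM in controls. Olig1 measured 0.354, 0.108 and 4.81 CPM in Dlx5-/- and 0.646, 0.0 and 0.86 CPM in controls. Of the 5 tested markers, 4 had estimates above 0 and 1 below, and the groups of all 5 overlapped. Sums of cartilage, osteoblast, red cell and macrophage markers overlapped between the groups. Of 6 cartilage markers, 5 had estimates above 0 and 1 below (median 0.40). Sox9 (0.79, SE 0.25) was higher without overlap, and the rest of that list overlapped. Of 5 tested osteoblast markers, 1 had an estimate above 0 and 4 below (median -0.47), and the groups of all 5 overlapped. Medians were 0.06 for red cell and -0.01 for macrophage markers. In RNA from whole tissue, fewer cells of a type and less RNA per cell cannot be told apart, and the part of these cells in the values of the division and replication genes was not tested.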

How the data were processed

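Per the submitters' processing notes, STAR 2.4.1d, Partek and the build mm10 were used; the sources used here do not name the annotation, the counting settings or the strand. The deposited table holds estimated counts (expected counts), although it is named as normalized: its columns sum to different totals, and 64.5% of values above 0.5 are whole within 0.001. Of its columns, 1 fits no sample of the labels and was left unused.

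Values were rounded to whole numbers before the count tests. Genes with a mean of at least 1 CPM over 6 libraries (16218 of 49492) were tested with edgeR 4.0.16 (quasi-likelihood, TMM, R 4.3.3), Dlx5-/- against control without a block, with Benjamini-Hochberg adjustment at 0.05 over all genes. The SE was derived from the F statistic. The test was tried on simulated data first. Alternatives were DESeq2 1.42.0, limma-trend 3.58.1 with pseudocounts of 1 and 0.5, other scalings and filters, removal of 6 ribosomal RNA rows, a replicate block and each library left out. Gene coordinates and exon lengths came from GENCODE M21 (GRCm38). Lists are described by counts and medians, with no set test.

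The members and lists were chosen with earlier results of these data known, including the higher level of cell cycle genes. All members may be named; values in every library are given for the 4 smallest p in mitosis and replication, for Mki67, Pcna, Cdk1, Ccnb1 and the G1 cyclins, and for genes described beside them. From the other lists at most 3 genes with the smallest p are named, besides the fixed regulators and genes said to be named after their values were seen. The kinetochore list matched 18 of 20 symbols.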

Additional observations from a re-analysis of the deposited data

How the results depend on the processing

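The class medians moved by less than 1 SD between Dlx5-/- libraries under every alternative. Leaving out 1 library, they ran from 0.2083 to 0.2534 (mitosis) and 0.216 to 0.3195 (replication). Estimates lay above 0 for all 36 genes under every alternative that kept all libraries, and for 34 to 36 with 1 library left out. The exceptions were Aurka (-0.0255) and Aurkb (-0.0488) without Dlx5-/- replicate 3, Gins2 (-0.0186) without control replicate 1, Bub1 (-0.0158) without control replicate 2 and Ccne2 (-4.97e-05) without control replicate 3; the highest values with 1 library left out were 0.168, 0.167, 0.121, 0.203 and 0.201 for these genes in that order. The number of the 36 genes called was 1 with DESeq2, with limma-trend at either pseudocount and with a filter of 5 CPM, 2 with no filter and 2 at a threshold of 0.1; the genes were Ube2c and, for the last 2 settings, also Birc5. It was 0 to 1 with 1 library left out. The number at an unadjusted p under 0.05 was 6 with library totals in place of TMM, where 2.79% of tested genes were higher. It ran from 10 to 19 with 1 library left out. Beside the 10, without control replicate 3, 3.47% of tested genes were higher, and no such share was taken for the 19. Over the whole table, in either direction, edgeR called 1 gene, against 506 with DESeq2 and 97 and 96 with limma-trend at pseudocounts of 1 and 0.5. EdgeR called 41 with library totals, 679 of 29870 genes with no filter and 74 of 12523 with a filter of 5 CPM. At a threshold of 0.1 it called 299, and with 1 library left out 0 to 164. The cause was not tested. No scaling moved the median of all genes by more than 0.1.

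Correlations of deviations between same-numbered libraries were -0.0138, -0.0108 and 0.0197, and no library correlated best with its own number. These values show no pairing by the replicate numbers of the labels. With 3 libraries per group they cannot exclude it. With a replicate block edgeR called 0 genes in the whole table and 0 of the 36, and the class medians were 0.2364 and 0.2603. Depth limits the less abundant genes: the lowest count of any of the 36 in a library was 50.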
